A study of Arabidopsis thaliana with 24 samples.

Results

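The 7 basic leucine zipper (bZIP) transcription factors described here, ABI5, EEL, AREB3, bZIP67, bZIP53, bZIP10 and bZIP25, act in the maturation of Arabidopsis thaliana seeds. They were chosen by name for their known role in seed maturation, with earlier results of these data known. They were found by probe set ID: ABI5 (AT2G36270_at), EEL (AT2G41070_at), AREB3 (AT3G56850_at), bZIP67 (AT3G44460_at), bZIP53 (AT3G62420_at), bZIP10 (AT4G02640_at) and bZIP25 (AT3G54620_at). All 7 were found among the 27827 loci measured. bZIP proteins bind DNA as pairs, through a basic region next to a leucine zipper, mostly at sites with an ACGT core. ABI5, EEL, AREB3 and bZIP67 belong to group A, which acts in the response to abscisic acid (ABA), the hormone of seed maturation and dormancy. bZIP53 belongs to group S1 and pairs with the group C factors bZIP10 and bZIP25 on storage protein genes, together with the embryo regulator ABI3. The data are 24 one-colour arrays of developing Col-0 seeds, with no mutation or treatment given in the labels. Seeds were harvested at 4 stages, 12, 15, 18 and 20 days after pollination (DAP), and either their total RNA or the RNA carried on polysomes was hybridised. That gave 8 groups of 3 biological replicates. Each replicate was the bulked seed of 8 plants grown in a randomized block layout, so embryo, endosperm and seed coat were measured together.

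Values are the authors' log2 levels after RMA, an array method that subtracts background, normalizes the arrays and summarizes the probes. A level is comparable for 1 locus across arrays, not between loci. Markers of embryo filling (CRA1, OLEO1 and SESA1) had mean log2 levels of 11.1 to 12.3 on all 24 arrays. The 6 arrays from the earliest stage differed from the 18 later ones. Their SD of log2 levels over loci was 1.39 to 1.71 against 2.13 to 2.43, and replicates correlated at 0.739 to 0.851 against 0.955 to 0.990 across loci. Seed coat and silique valve markers were also higher at 12 DAP: the mean of 4 seed coat genes was 7.43 to 7.91 in total RNA at 12 DAP and 3.50 to 3.85 at 15 DAP. The mean of 5 genes listed as silique valve markers was 3.76 to 5.48 and then 2.68 to 3.01. Which tissue these 5 genes mark in these samples was not tested. Limma called 3 of the 5 lower at 15 DAP in total RNA and 5 in polysomal RNA (adjusted p under 0.05). Their 12 DAP means lay around the medians of those arrays, and their 15 DAP means below the medians of the later arrays. The part of the narrower 12 DAP spread in this difference was not tested. The mean of 3 endosperm genes was 6.53 to 7.12 and then 5.31 to 5.55. The endosperm genes did not move together: in each fraction 1 was called higher and 2 lower at 15 DAP (limma, adjusted p under 0.05). These marker differences move with every comparison of 12 and 15 DAP below, and their part in the results was not tested. In whole seeds, fewer cells of a type and less RNA per cell cannot be told apart. For these reasons, comparisons with 12 DAP used the compared groups' arrays, and later comparisons shared 1 estimate of the spread over the 18 later arrays.

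Between 12 and 15 DAP most of the bZIP transcripts rose, with the largest difference for ABI5. In total RNA 5 of the 7 were higher at 15 DAP (limma, Benjamini-Hochberg adjusted p under 0.05 over all loci), where 39.9% of all loci changed and 20.5% were higher. In polysomal RNA 6 of the 7 were higher, where 68.8% of all loci changed and 29.4% were higher. The median difference of the members was 1.38 log2 units in total and 1.69 in polysomal RNA, against -0.32 and -0.51 over all loci. These counts depended on how the arrays were scaled: quantile normalization over all arrays kept 1 rise in total RNA (ABI5) and 2 in polysomal RNA (ABI5 and bZIP53). Cyclic loess kept no rise in total RNA, with a member median of -0.08, and 2 in polysomal RNA (ABI5 and bZIP67).

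**Figure D1:**
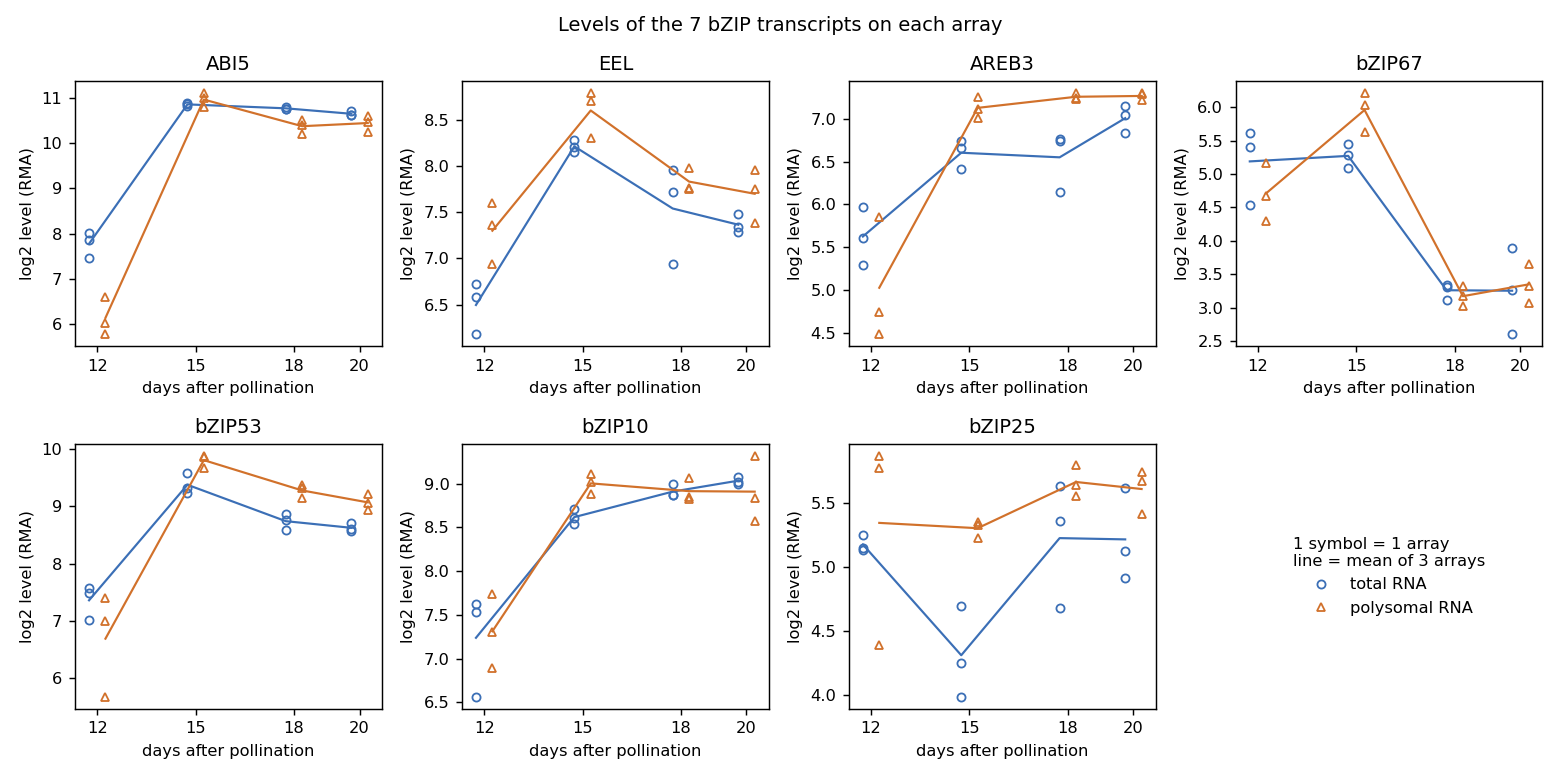
Log2 level (RMA) of each of the 7 bZIP transcripts against days after pollination, with 1 circle per total RNA array, 1 triangle per polysomal RNA array and lines through the means of 3 arrays. ABI5 and bZIP53 are lowest at 12 DAP in both fractions, and bZIP67 lies at or below 3.89 at 18 and 20 DAP, under all its earlier values.

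ABI5 is the group A factor through which ABA acts on late embryo genes such as EM1 and EM6. In total RNA its log2 level was 8.01, 7.86 and 7.45 at 12 DAP and 10.90, 10.87 and 10.82 at 15 DAP. In polysomal RNA it was 5.77, 6.59 and 6.02 at 12 DAP and 10.80, 11.12 and 11.00 at 15 DAP. All 15 DAP arrays lay above all 12 DAP arrays in both fractions, and at 12 DAP the polysomal arrays lay below the total ones. The rise was 3.09 ± 0.32 (SE, n = 3 per group) in total RNA, or 8.53-fold (limma, adjusted p = 0.00011). It was 4.84 ± 0.33 in polysomal RNA, or 28.7-fold (limma, adjusted p = 1.8e-05). The polysomal rise passed the test under each scaling tried, with 2.57 (adjusted p = 0.0004) under cyclic loess, whereas the total rise was 0.84 (adjusted p = 0.08) there.

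After 15 DAP ABI5 stayed within a narrow range. Total RNA levels were 10.76, 10.81 and 10.76 at 18 DAP and 10.71, 10.64 and 10.62 at 20 DAP, each group just below the one before without overlap. The difference of 20 and 15 DAP in total RNA was -0.21 ± 0.14 (limma, adjusted p = 0.33; 95% interval -0.50 to 0.08). Polysomal levels were 10.40, 10.22 and 10.53 at 18 DAP and 10.48, 10.26 and 10.61 at 20 DAP, all below the 15 DAP arrays. Polysomal ABI5 fell by 0.52 ± 0.14 from 15 to 20 DAP (limma, adjusted p = 0.020). That call was lost when 1 of 4 arrays was left out, namely replicates 2 and 3 of polysomal RNA at 15 DAP and replicates 1 and 2 at 20 DAP (adjusted p 0.055 to 0.098), when the 2 groups were fitted alone (0.0655), under quantile normalization (-0.44, adjusted p = 0.055) and with all 24 arrays in 1 model (0.32). Over the 6 fits that left out 1 array the difference was -0.60 to -0.42.

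EEL, which competes with ABI5 for the EM1 promoter, peaked at 15 DAP in both fractions. Its total RNA level was 6.58, 6.73 and 6.18 at 12 DAP, 8.28, 8.20 and 8.15 at 15 DAP, 7.72, 7.95 and 6.94 at 18 DAP and 7.34, 7.48 and 7.28 at 20 DAP. Its polysomal level was 6.94, 7.36 and 7.60 at 12 DAP, 8.30, 8.71 and 8.79 at 15 DAP, 7.76, 7.75 and 7.98 at 18 DAP and 7.75, 7.39 and 7.96 at 20 DAP. In each fraction the 15 DAP arrays lay above every array of the other stages. The rise from 12 DAP was 1.71 ± 0.32 in total RNA (limma, adjusted p = 0.0023) and 1.30 ± 0.32 in polysomal RNA (0.0063). Its sign turned under cyclic loess, to -0.08 and -0.89, and in polysomal RNA under quantile normalization, to -0.12. EEL then fell by 0.85 ± 0.22 to 20 DAP in total RNA (limma, adjusted p = 0.014) and by 0.90 ± 0.22 in polysomal RNA (0.014). The polysomal call was lost without replicate 2 or 3 of 15 DAP or replicate 2 of 20 DAP (adjusted p 0.055 to 0.077), and both calls were lost with all 24 arrays in 1 model (0.066 each). The EEL locus overlaps AT2G41060 in the reference annotation. Strand and probe positions were not compared, so whether a probe reads both genes is not known.

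AREB3, a group A factor of embryos that binds ABA-responsive elements, had its highest mean at 20 DAP in both fractions. In total RNA it was 5.61, 5.97 and 5.29 at 12 DAP, 6.74, 6.41 and 6.66 at 15 DAP, 6.77, 6.74 and 6.14 at 18 DAP and 7.04, 7.15 and 6.83 at 20 DAP. In polysomal RNA it was 4.49, 4.74 and 5.85 at 12 DAP and between 7.01 and 7.30 on all 9 later arrays. The 12 DAP arrays lay below all later arrays of the same fraction. The polysomal rise from 12 to 15 DAP was 2.10 ± 0.39 (limma, adjusted p = 0.0015), and 0.19 (0.78) under cyclic loess. The total rise was 0.98 ± 0.33 (limma, adjusted p = 0.038), and -0.40 under cyclic loess. With the replicate number as a block its adjusted p was 0.063, and it was lost in 5 of 6 fits that left out 1 array (0.0505 to 0.13), all but the one without replicate 2 of 12 DAP. The total rise was 0.81 to 1.15 in these 6 fits. Between 15 and 20 DAP AREB3 differed by 0.40 ± 0.17 in total RNA (adjusted p = 0.11) and 0.14 ± 0.17 in polysomal RNA (0.71). AREB3 overlaps AT3G56840 in the annotation, with the same uncertainty as for EEL.

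bZIP67 is a group A factor that works with L1L and NF-YC2, subunits of a CCAAT-binding complex, on CRC, SUS2, FAD3 and DOG1. Its total RNA level was 5.41, 5.62 and 4.54 at 12 DAP, 5.44, 5.09 and 5.28 at 15 DAP, 3.31, 3.34 and 3.12 at 18 DAP and 3.89, 2.603 and 3.26 at 20 DAP. Its polysomal level was 4.68, 5.17 and 4.29 at 12 DAP, 5.63, 6.21 and 6.04 at 15 DAP, 3.02, 3.32 and 3.17 at 18 DAP and 3.07, 3.65 and 3.32 at 20 DAP. The 18 and 20 DAP arrays lay below all arrays of 12 and 15 DAP in both fractions. From 15 to 20 DAP it fell by 2.02 ± 0.26 in total RNA, or 4.06-fold (limma, adjusted p = 6.6e-05). In polysomal RNA it fell by 2.61 ± 0.26, or 6.12-fold (limma, adjusted p = 5.9e-06).

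Both falls of bZIP67 passed the test under every alternative run, those that left out 1 array included. The difference of 18 and 15 DAP was -2.01 in total RNA (limma, adjusted p = 9.9e-05) and -2.79 in polysomal RNA (4.5e-06). From 18 to 20 DAP it differed by -0.01 (95% interval -0.55 to 0.54) and 0.18 (-0.37 to 0.72). The medians of the later arrays were 3.67 to 4.04, and apart from 1 array at 3.89 all levels of bZIP67 at 18 and 20 DAP lay under 3.67. The file holds no detection call, so whether the level reached background was not tested. In polysomal RNA bZIP67 had risen by 1.25 ± 0.34 from 12 to 15 DAP (limma, adjusted p = 0.010), which was lost without replicate 2 of polysomal RNA at 15 DAP (0.055) and under quantile normalization (0.67, adjusted p = 0.39). In total RNA that difference was 0.08 ± 0.37 (adjusted p = 0.87), with an interval of -0.74 to 0.91.

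bZIP53, the group S1 factor that activates storage protein genes together with group C factors, peaked at 15 DAP. Its total RNA level was 7.49, 7.02 and 7.57 at 12 DAP, 9.58, 9.32 and 9.22 at 15 DAP, 8.76, 8.87 and 8.58 at 18 DAP and 8.70, 8.56 and 8.60 at 20 DAP. Its polysomal level was 5.68, 7.40 and 6.99 at 12 DAP, 9.67, 9.88 and 9.86 at 15 DAP, 9.37, 9.31 and 9.14 at 18 DAP and 9.21, 9.06 and 8.93 at 20 DAP. The 15 DAP arrays were the highest and the 12 DAP arrays the lowest, without overlap, in both fractions. The rise was 2.01 ± 0.32 in total RNA (limma, adjusted p = 0.0011; -0.03 under cyclic loess) and 3.11 ± 0.44 in polysomal RNA (0.00036; 0.84, adjusted p = 0.17, under cyclic loess). bZIP53 then fell to 20 DAP, by 0.75 ± 0.14 in total RNA (limma, adjusted p = 0.0020) and by 0.74 ± 0.14 in polysomal RNA (0.0029). The total fall had an adjusted p of 0.051 when the 2 groups were fitted alone, and with all 24 arrays in 1 model the adjusted p was 0.17 for total and 0.25 for polysomal RNA.

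bZIP10 and bZIP25 are the group C partners of bZIP53, and neither fell after 15 DAP by the test. bZIP10 was 7.62, 6.56 and 7.53 in total RNA at 12 DAP and 8.71, 8.60 and 8.54 at 15 DAP, and lay between 8.87 and 9.08 at 18 and 20 DAP. In polysomal RNA it was 7.74, 6.89 and 7.31 at 12 DAP and between 8.57 and 9.32 later, so in both fractions the 12 DAP arrays were lowest without overlap. It rose by 1.38 ± 0.37 in total RNA (limma, adjusted p = 0.014; 0.057 without replicate 1 of total RNA at 15 DAP) and by 1.69 ± 0.33 in polysomal RNA (0.0018). Under cyclic loess these differences were -0.64 and -0.58, neither called. To 20 DAP bZIP10 differed from its 15 DAP level by 0.42 ± 0.17 in total RNA (adjusted p = 0.093) and -0.09 ± 0.17 in polysomal RNA (0.82).

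bZIP25 was the member with the smallest span of group means, 0.92 log2 units in total and 0.36 in polysomal RNA. Its total RNA level was 5.25, 5.14 and 5.15 at 12 DAP, 3.98, 4.70 and 4.24 at 15 DAP, 5.36, 5.64 and 4.68 at 18 DAP and 5.12, 5.62 and 4.91 at 20 DAP. The 15 DAP arrays were lowest, and overlapped only with 1 array of 18 DAP. The difference of 15 and 12 DAP was -0.87 ± 0.33 (limma, adjusted p = 0.057). It was called at that size with all 24 arrays in 1 model (0.027) and with dim loci left out (0.0485), at -1.23 (0.029) under quantile normalization and at -1.35 (0.019) under cyclic loess. From 15 to 20 DAP it rose by 0.91 ± 0.24 (limma, adjusted p = 0.014). That rise was lost without replicate 1 of total RNA at 15 DAP (0.062) or replicate 2 at 20 DAP (0.070), when the 2 groups were fitted alone (0.0905) and with all 24 arrays in 1 model (0.11). Polysomal bZIP25 was 5.87, 4.39 and 5.78 at 12 DAP and between 5.23 and 5.80 on the 9 later arrays, and its differences were -0.04 ± 0.42 (adjusted p = 0.93) and 0.31 ± 0.24 (0.51).

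**Figure D2:**
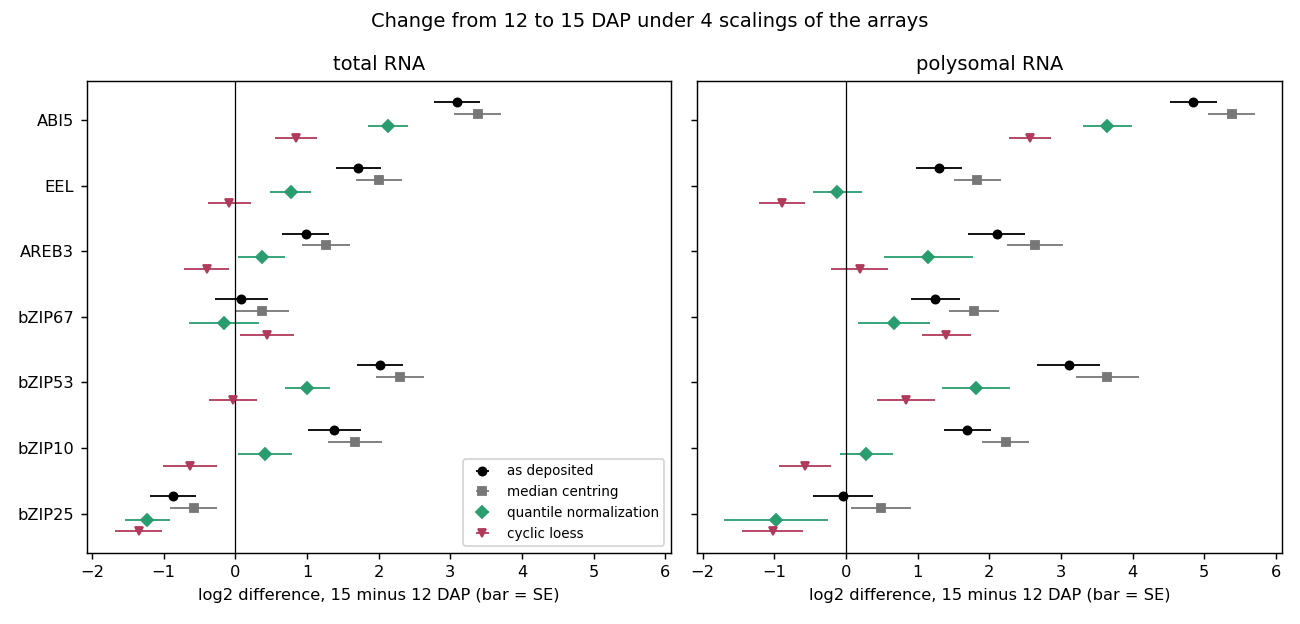
Log2 difference of 15 minus 12 DAP for each bZIP transcript in total RNA (left) and polysomal RNA (right), with SE bars, as deposited and under 3 other scalings of the arrays. ABI5 stays above 0 in all, whereas EEL and bZIP10 move from above 0 as deposited to below 0 under cyclic loess in both fractions.

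Between 15 and 20 DAP 4 of the 7 members changed in total RNA, where 19.2% of all loci changed, and 4 of the 7 in polysomal RNA, where 12.6% did. In total RNA EEL, bZIP67 and bZIP53 fell, where 7.7% of all loci were lower, and bZIP25 rose, where 11.5% were higher. In polysomal RNA ABI5, EEL, bZIP67 and bZIP53 fell, where 5.4% of all loci were lower. The comparison of 18 and 15 DAP was added after the values were seen. In total RNA bZIP67 and bZIP53 fell (5.61% of all loci were lower) and bZIP25 rose (7.76% were higher), 3 members against 13.4% of all loci. EEL was at -0.67 and not called (limma, adjusted p = 0.058). It was called lower under quantile normalization (0.027), under cyclic loess (0.016), with dim loci left out (0.044) and without replicate 2 of 18 DAP (0.026). The bZIP25 call was lost without replicate 1 or 3 of 15 DAP or replicate 1 or 2 of 18 DAP (adjusted p 0.052 to 0.088), and those of bZIP25 and bZIP53 when the 2 groups were fitted alone (0.19 and 0.17) and with all 24 arrays in 1 model (0.15 and 0.34). In polysomal RNA ABI5, EEL, bZIP67 and bZIP53 were again called lower, where 11.7% of all loci changed and 5.08% were lower. Of these 4 calls bZIP67 held in every fit that left out 1 of the 6 arrays, whereas ABI5 was lost in 2 (without replicate 2 of 15 or 18 DAP), bZIP53 in 4 (without replicate 2 or 3 of either) and EEL in 5 (all but the one without replicate 1 of 15 DAP). EEL and bZIP53 were also lost under median centring (adjusted p = 0.052 and 0.060), and with all 24 arrays in 1 model bZIP67 alone was called. Between 18 and 20 DAP limma called 0 members in total RNA (0.00719% of all loci; 1 member, AREB3, at an unadjusted p under 0.05) and 0 in polysomal RNA (0% of all loci; 0 members unadjusted). At an unadjusted p under 0.05 there were 2275 and 549 of all loci.

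Polysomal RNA was set against total RNA of the same stage to see whether the ribosome-bound share of a transcript stood above or below that of others. On normalized arrays this difference is relative to the other transcripts of the same arrays and does not measure the fraction of a transcript on ribosomes. Over the mean of 15, 18 and 20 DAP 4 of the 7 members were higher in polysomal RNA and 0 lower, where 52.7% of all loci differed and 29.7% were higher. bZIP53 was higher by 0.47 ± 0.08 (limma, adjusted p = 0.00026), and its polysomal arrays lay above its total arrays without overlap at each of the 3 stages. This call held under every alternative run, with 0.39 under cyclic loess. AREB3 was higher by 0.50 ± 0.10 (limma, adjusted p = 0.00055), also without overlap at each of the 3 stages, and by 0.17 (0.11) under cyclic loess.

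bZIP25 was higher in polysomal RNA by 0.61 ± 0.14 (limma, adjusted p = 0.0017) and by 0.26 (0.11) under cyclic loess. Its groups were apart at 15 DAP, by 0.996 ± 0.21 log2 units (SE from the replicates of the 2 groups, not from limma), and overlapped at 18 and 20 DAP. EEL was higher by 0.34 ± 0.13 (limma, adjusted p = 0.037; 0.051 with the replicate number as a block). It was 0.16 (adjusted p = 0.25) under quantile normalization and 0.13 (0.38) under cyclic loess, and with all 24 arrays in 1 model its adjusted p was 0.092. That call was lost in 10 of the 18 fits that left out 1 array (adjusted p 0.054 to 0.079). These were the fits without replicates 2 and 3 of polysomal RNA at 15 DAP, replicate 3 at 18 DAP and replicates 1 and 3 at 20 DAP, and without replicates 2 and 3 of total RNA at 15 DAP, replicate 3 at 18 DAP and replicates 1 and 3 at 20 DAP. ABI5 differed by -0.16 ± 0.08 (adjusted p = 0.092), bZIP10 by 0.09 ± 0.10 (0.46) and bZIP67 by 0.23 ± 0.15 (0.20). By stage ABI5 was at 0.11 at 15 DAP, where the fractions overlapped. At 18 and 20 DAP it was at -0.40 and -0.21, with the polysomal arrays below the total ones without overlap. bZIP10 was at 0.39 without overlap at 15 DAP, and its fractions overlapped at 18 and 20 DAP. Under median centring bZIP10 was higher by 0.29 (adjusted p = 0.025) and bZIP67 by 0.43 (0.027), which made 6 of the 7 members called, and bZIP67 was also called without replicate 1 of total RNA at 20 DAP (0.34, adjusted p = 0.034). For bZIP67 the 15 DAP groups were apart, with polysomal RNA higher by 0.69 ± 0.20 (SE from the replicates of the 2 groups), and the 18 and 20 DAP groups overlapped.

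**Figure D3:**
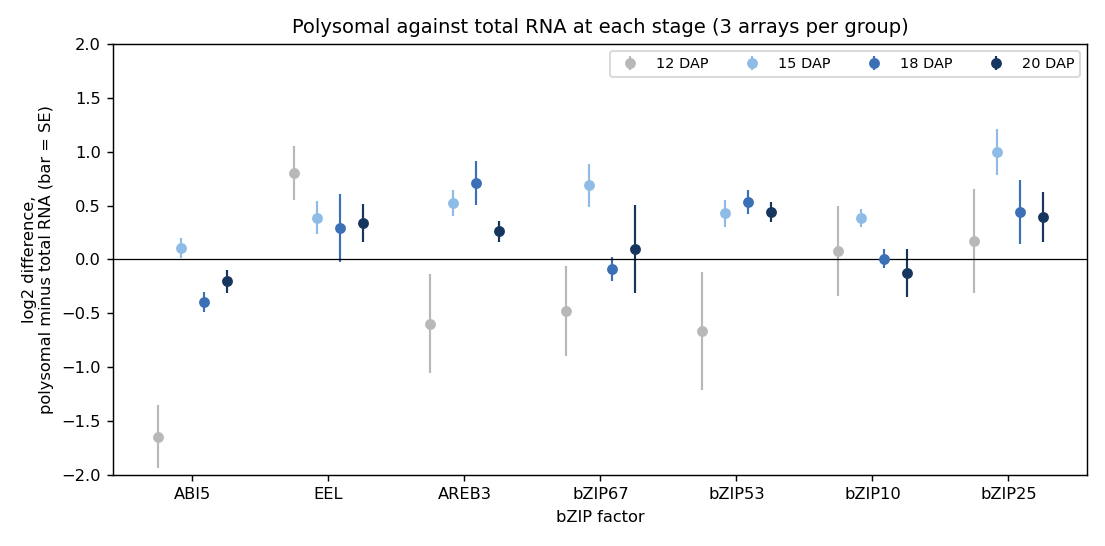
Polysomal minus total log2 level of each bZIP transcript at each stage, as the difference of means of 3 arrays. The SE is from the replicates of the 2 groups, not from limma: for ABI5 at 12 DAP it is 0.30, against 0.48 in limma. bZIP53 lies between 0.43 and 0.54 at the 3 later stages, and ABI5 lies at -1.64 at 12 DAP against 0.11 at 15 DAP.

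At 12 DAP limma called 0 members between the fractions, where 5.65% of all loci differed, and 1 member, ABI5, had an unadjusted p under 0.05. ABI5 was lower in polysomal RNA by 1.64 log2 units (-1.64 ± 0.48, adjusted p = 0.054), with no overlap between the fractions. It was called with all 24 arrays in 1 model (1.2e-05) and with dim loci left out (0.0455). EEL was higher in polysomal RNA by 0.80 ± 0.47 (adjusted p = 0.35), also without overlap, and was called with all 24 arrays in 1 model (0.025). The change of the polysomal to total difference from 12 to 15 DAP was 1.75 ± 0.46 for ABI5 (limma, adjusted p = 0.0495). This change was the 1 call among the 7 members, where 2.9% of all loci were called, 2% higher. It had an adjusted p of 0.069 with the replicate number as a block and 0.11 under quantile normalization, where it was 1.52. It was lost in 10 of the 12 fits that left out 1 array (0.059 to 0.15), all but those without replicate 3 of total RNA or replicate 2 of polysomal RNA at 12 DAP. The ABI5 change was 1.57 to 1.98 in these 12 fits. For the change from 15 to 20 DAP limma called 0 members (0.0791% of all loci; 1 member, bZIP10, at an unadjusted p under 0.05).

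Among the 5 bZIP factors of group S1, whose transcripts carry a conserved upstream reading frame through which sucrose represses translation, 3 were higher in polysomal RNA over the 3 later stages and 0 lower, where 29.7% of all loci were higher. Beside bZIP53, bZIP1 was higher in polysomal RNA by 1.05 ± 0.17 (limma, adjusted p = 0.00013) and bZIP44 by 0.33 ± 0.12 (0.028). The bZIP44 call was lost without replicate 2 or 3 of polysomal RNA at 15 DAP, replicate 2 at 18 or 20 DAP, replicate 3 of total RNA at 15 DAP or replicate 2 at 20 DAP (adjusted p 0.054 to 0.063), and with all 24 arrays in 1 model (0.19). At 12 DAP bZIP44 was lower in polysomal RNA by 2.09 log2 units (-2.09 ± 0.54, limma, adjusted p = 0.030), where 4.75% of all loci were lower. That call was lost under quantile normalization (0.11) and in 5 of 6 fits that left out 1 array (0.058 to 0.13), all but the one without replicate 3 of total RNA. bZIP2 differed by -0.31 ± 0.14 (adjusted p = 0.068) and bZIP11 by -0.11 ± 0.16 (0.58). From 15 to 20 DAP bZIP2, bZIP11 and bZIP44 fell with bZIP53 in total RNA, by 0.84, 1.14 and 1.49 log2 units (limma, adjusted p 0.020, 0.0075 and 0.00015). The bZIP2 call was lost without replicate 3 of total RNA at 15 DAP or replicate 2 or 3 at 20 DAP (adjusted p 0.056 to 0.095). When the 2 groups were fitted alone the bZIP2, bZIP11 and bZIP53 calls were lost (0.11, 0.077 and 0.051). With all 24 arrays in 1 model those of bZIP2 and bZIP53 were lost (0.17 each). bZIP1 differed by 0.59 (0.18). Each of the 5 has values identical on all 24 arrays to those of another locus (AT3G62422 for bZIP53), so the signal cannot be divided between the loci. These other loci are absent from the reference annotation, and whether they are genes apart from the bZIP loci was not tested.

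Of the other 15 bZIP factors of groups A, C and S1, 1 rose and 7 fell in total RNA between 12 and 15 DAP, with a median of -0.77, where 20.5% of all loci were higher and 19.4% lower. In polysomal RNA 4 rose and 7 fell, where 29.4% of all loci were higher and 39.4% lower. The 7 polysomal falls became 1 under quantile normalization, 2 under cyclic loess, 3 under median centring and 4 with dim loci left out. bZIP11 had the largest fall, -3.71 ± 0.32 (limma, adjusted p = 5.1e-05), and bZIP1 rose by 1.16 ± 0.32 (0.017; 0.062 and 0.077 without replicate 3 or 2 of total RNA at 15 DAP). From 15 to 20 DAP 0 rose and 3 fell in each fraction, in total RNA the 3 of group S1 named above (1 when the compared groups were fitted alone). Of all loci 7.7% were lower then in total and 5.4% in polysomal RNA. In polysomal against total RNA of the later stages 4 were higher and 4 lower, where 29.7% and 23% of all loci were, and with all 24 arrays in 1 model 1 and 2. Among them were the ABA response factors ABF1, higher by 0.53 ± 0.10 (adjusted p = 0.093 with all 24 arrays), and ABF3, lower (-0.91 ± 0.18).

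Of 6 embryo regulators and partners, 1 rose and 4 fell in total RNA between 12 and 15 DAP, where 20.5% of all loci were higher and 19.4% lower. ABI3, which acts with ABI5 and with bZIP53, rose by 2.71 ± 0.30 (limma, adjusted p = 0.00016), and by 0.71 (0.16) under cyclic loess. L1L, the partner of bZIP67, fell by 2.32 ± 0.36 in total RNA (limma, adjusted p = 0.0010), and LEC1 and LEC2 fell by 2.08 ± 0.34 and 2.23 ± 0.42 (0.0012 and 0.0027; LEC2 0.055 under quantile normalization). From 15 to 20 DAP 2 of the 6 fell, as did bZIP67: FUS3 by 1.65 ± 0.20 (limma, adjusted p = 3.2e-05) and ABI3 by 0.75 ± 0.19 (0.012; 0.18 with all 24 arrays in 1 model), where 7.7% of all loci were lower. L1L and NF-YC2 were not called then, with 0.20 ± 0.31 (0.72) for L1L. Over the later stages 1 of the 6 was higher and 4 were lower in polysomal RNA, where 29.7% of all loci were higher and 23% lower. These were 0 and 3 under quantile normalization, 0 and 4 under cyclic loess, 1 and 2 under median centring and 0 and 2 with all 24 arrays in 1 model. L1L was lowest at -1.32 ± 0.18 (limma, adjusted p = 2.7e-05), a call that held under each alternative run. The LEC1 call (-0.35) was lost under all 3 other scalings, with all 24 arrays in 1 model, with the replicate number as a block and in 12 of 18 fits that left out 1 array. It held without replicate 2 of total RNA at 15 DAP, replicate 3 at 18 or 20 DAP, replicate 1 of polysomal RNA at 15 DAP or replicate 2 at 18 or 20 DAP. The ABI3 call (-0.31) was lost under median centring, with all 24 arrays in 1 model and in 6 of 18 fits, those without replicate 1 of polysomal RNA at 15 DAP, replicate 1 or 2 at 18 or 20 DAP or replicate 1 of total RNA at 18 DAP.

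Of 20 measured genes that the literature gives as targets of these factors, 11 rose and 1 fell between 12 and 15 DAP in total RNA. Their median was 0.99, where 20.5% of all loci were higher and 19.4% lower. Under cyclic loess 2 rose and 12 fell. The largest rises were those of DGAT1, an enzyme of oil synthesis, at 3.51 ± 0.38, and NYE1, which acts in chlorophyll breakdown, at 3.14 ± 0.32 (limma, adjusted p = 0.00015 and 0.00011; 0.95 for NYE1 under cyclic loess, adjusted p = 0.069). EM1 and EM6, late embryo genes bound by ABI5, rose by 1.49 ± 0.31 and 1.28 ± 0.30 (limma, adjusted p = 0.0042 and 0.0087), and were at -0.93 and -1.17 under cyclic loess. There EM6 was called lower (adjusted p = 0.027) and EM1 was not called (0.064). Between 15 and 20 DAP 1 target rose and 8 fell in total RNA, with a median of -0.32 against 0.0029 over all loci, where 11.5% of all loci were higher and 7.7% lower. Under cyclic loess the median was -0.03, with 1 rise and 5 falls. Quantile normalization gave 3 rises and 5 falls, all 24 arrays in 1 model and the compared groups alone 0 and 5 each, median centring 1 and 5, and leaving out dim loci 1 and 11. In polysomal RNA 0 rose and 8 fell, where 5.4% of all loci were lower, against 0 and 4 with all 24 arrays in 1 model. The target that rose in total RNA was DGAT1, by 0.58 ± 0.15 (limma, adjusted p = 0.014). That call was lost with all 24 arrays in 1 model (0.22) and with the compared groups alone (0.093). It was also lost without replicate 2 of total RNA at 15 DAP or replicate 1 at 20 DAP (0.057 each). FAD3, an omega-3 fatty acid desaturase, fell by 3.49 ± 0.17 (limma, adjusted p = 1.7e-09). SESA2, an albumin of the seed store, fell by 2.25 ± 0.16 (limma, adjusted p = 1.5e-07). DOG1, the dormancy gene regulated by bZIP67, had log2 means of 8.77 at 15 DAP and 6.96 at 20 DAP in total RNA and fell by 1.80 ± 0.15 (limma, adjusted p = 1.3e-06). EM1 fell by 0.39 ± 0.12 (limma, adjusted p = 0.030), a call lost under the other scalings (0.095 to 0.37) and in 5 of the 6 fits that left out 1 array (0.055 to 0.087), all but the one without replicate 2 of 15 DAP. The EM1 call was also lost with all 24 arrays in 1 model (0.33) and with the compared groups alone (0.18). EM6 differed by -0.07 ± 0.12 (0.75). SUS2, a sucrose synthase, fell by 2.43 ± 0.35 from 12 to 15 DAP (limma, adjusted p = 0.00069) and differed by 0.18 ± 0.27 after it (0.70). Over the later stages 3 targets were higher and 11 lower in polysomal RNA, where 29.7% of all loci were higher and 23% lower. These counts were 4 and 4 under quantile normalization, 6 and 5 under cyclic loess, 6 and 4 under median centring and 1 and 7 with all 24 arrays in 1 model.

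**Figure D4:**
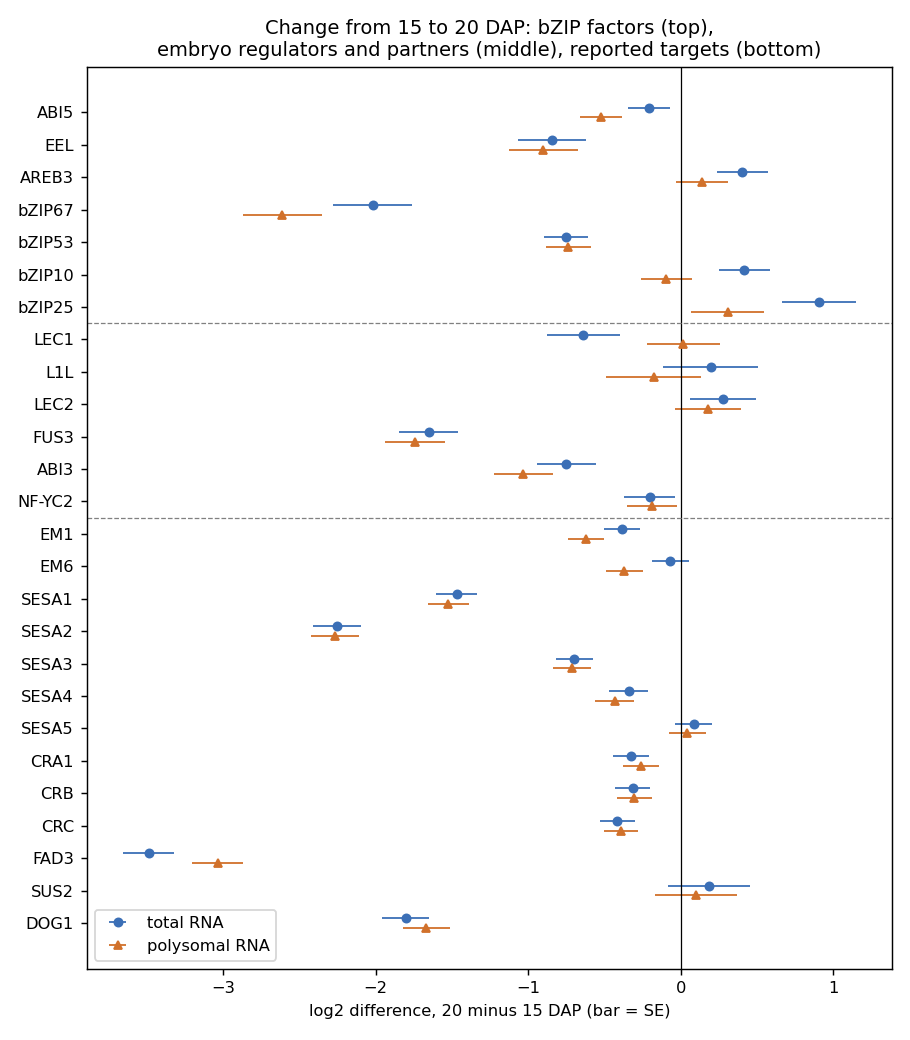
Log2 difference of 20 minus 15 DAP, with SE bars, in total RNA (circles) and polysomal RNA (triangles) for the 7 bZIP transcripts (top), the embryo regulators and partners (middle) and a part of the reported targets (bottom). Other targets are not shown, among them DGAT1 (0.58 in total RNA), the 1 target called higher there. bZIP67 lies at -2.02 and -2.61, and FAD3 has the largest fall of those shown, -3.49 in total RNA.

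Of 16 genes whose products modify, degrade or bind ABI5 protein, 9 rose and 1 fell in total RNA between 12 and 15 DAP (5 and 0 under quantile normalization, 2 and 0 under cyclic loess). In the deposited values 20.5% of all loci were higher and 19.4% lower there. SNRK2.3, a kinase that activates ABI5 in ABA signalling, rose by 4.53 ± 0.37 (limma, adjusted p = 3.7e-05) and again from 15 to 20 DAP by 1.37 ± 0.14 (6.7e-06). AFP1 and AFP2, ABI5-binding proteins that repress the ABA response, fell from 15 to 20 DAP by 1.67 ± 0.18 and 0.997 ± 0.15 (limma, adjusted p = 1.1e-05 and 0.00023). In that comparison 4 of the 16 rose and 4 fell, where 11.5% of all loci were higher and 7.7% lower, against 1 and 2 with all 24 arrays in 1 model or the compared groups alone. Over the later stages 13 were higher and 2 lower in polysomal RNA, where 29.7% of all loci were higher and 23% lower. The median was 0.36 against 0.051 over all loci. The counts were 5 and 1 under quantile normalization, and 4 and 1 under cyclic loess and with all 24 arrays in 1 model. KEG, the ubiquitin ligase that degrades ABI5, was higher by 0.71 ± 0.09 (limma, adjusted p = 1.3e-05), and SIZ1, a SUMO ligase, by 0.60 ± 0.09 (4.1e-05).

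The loci most like each member were sought by Pearson's r over all 24 arrays among 25650 loci whose group means spanned at least 1 log2 unit. These arrays share normalization and the step from 12 to 15 DAP, so r over the 18 later arrays is given as well. The closest to ABI5 was LTI65, a gene induced by ABA and drought (r = 0.994 over 24 and 0.919 over 18 arrays). The closest to bZIP67 was PLP4, a patatin-like lipid acyl hydrolase (0.942 and 0.951), and to bZIP53 it was STZ, a zinc finger factor of stress responses (0.983 and 0.912). FAP1, a fatty-acid-binding protein, was closest to EEL (0.938 and 0.869), and AT1G24290 was closest to AREB3 (0.975 and 0.904). For bZIP10 the closest was PDE312 (0.976), with r = 0.587 over the later arrays. bZIP25 had the lowest best match, AT3G58980 (0.820 and 0.871).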

How the data were processed

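Per the submitters' processing notes, the authors made the deposited log2 values with RMA, in 1 table of 27827 loci by 24 arrays. The notes give no version, and the array design, the genome build and which arrays were normalized together are not given in the sources used here, so no coordinates are printed. Arrays give no count depth, and 3 arrays per group limit the precision. Groups came from the labels. Differences were tested with limma 3.58.1 in R 4.3.3 (linear model and empirical Bayes), with p-values adjusted after Benjamini and Hochberg over all 27827 loci and a threshold of 0.05. Fits with 12 DAP used the compared groups' arrays (6, or 12 for the change of the ratio), and later ones the 18 arrays of 15, 18 and 20 DAP. No filter was applied. Names came from a RefSeq table of TAIR10.1, which held 27241 of the loci. The members and the gene lists were chosen with earlier results of these data known. The rule for named genes took all members, EM1, EM6, ABI3, LEC1 and DOG1, of each list the 2 largest called rises and falls in total RNA (15 against 12 and 20 against 15 DAP) and in the later polysomal difference, and the 2 loci most correlated with each member. Not all of these are named, and bZIP2 was added after its values were seen, to complete group S1. HSD1, 1 target of 21, is not analysed here. Alternatives were other scalings, all 24 arrays in 1 model, compared arrays alone, dim loci left out, the replicate block and each array left out. A fit that left out 1 array also had fewer arrays, so a lost call does not single out the array named. The fits were tested on simulated data.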

Additional observations from a re-analysis of the deposited data

Results flagged for a closer look

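The polysomal to total difference of ABI5 changed by 1.7516 ± 0.46 log2 units between 12 and 15 DAP (limma interaction, adjusted p = 0.0495), because the fractions were compared at both stages and the difference itself was tested. The call was lost in 10 of the 12 fits that left out 1 array (adjusted p 0.059 to 0.15), with the replicate number as a block (0.069) and under quantile normalization (0.11). In the 12 fits that left out 1 array the change was 1.57 to 1.98. The difference was -1.64 at 12 DAP and 0.11 at 15 DAP. The 12 DAP arrays had a narrower spread over loci and higher means of the genes listed as seed coat and silique valve markers. The part of either in this change was not tested.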

How the results depend on the processing

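Of 1225 member values recomputed, 7 called ones changed sign, all between 12 and 15 DAP, and 52 others changed sign with neither value called. Under cyclic loess EEL was at -0.08416, AREB3 at -0.4028, bZIP53 at -0.02845 and bZIP10 at -0.6354 in total RNA, and EEL at -0.8914 and bZIP10 at -0.5757 in polysomal RNA. Quantile normalization put EEL at -0.1214 in polysomal RNA. Of the list genes, cyclic loess put EM1 at -0.9303 and -0.4166 and EM6 at -1.17 and -1.244 in total and polysomal RNA, and the later polysomal difference of NF-YC2 at -0.0007847. Of these values only those of EM6 were called, as falls (limma, adjusted p = 0.027 and 0.018). The cause of the changes of sign was not tested. The count of members called from 12 to 15 DAP went from 5 to 2 (quantile) and 1 (cyclic loess) in total RNA and from 6 to 2 and 2 in polysomal RNA. With all 24 arrays in 1 model it went from 4 to 1 at 20 against 15 DAP and to 1 at 18 against 15 DAP in both fractions, and from 0 to 2 between the fractions at 12 DAP (1 without dim loci). With the compared arrays alone it was 2 and 1 for total RNA at 20 and 18 against 15 DAP, and median centring left 2 for polysomal RNA at 18 against 15 DAP. Cyclic loess left 1 of 4 in the later polysomal difference, and quantile normalization and the replicate block left 0 of 1 for the change of the ratio. Leaving out each array in turn gave 3 to 5 members in total and 5 to 6 in polysomal RNA at 15 against 12 DAP, 3 to 4 and 2 to 4 at 20 against 15 DAP, 2 to 3 and 1 to 4 at 18 against 15 DAP, 3 to 4 for the later polysomal difference, 0 to 1 for the change of its ratio to 15 DAP, and 0 elsewhere. The lowest counts came without replicate 1 of total RNA at 15 DAP (3), replicates 2 and 3 of polysomal RNA at 15 DAP and replicate 2 at 20 DAP (2 each at 20 against 15 DAP), and replicate 2 of polysomal RNA at 15 or 18 DAP (1 each; 2 without replicate 3 of either) at 18 against 15 DAP.

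The labels do not tie samples by replicate number, and in 0 of 28 pairs of groups did every same-numbered pair of deviations correlate above 0.1 (single correlations -0.059 to 0.244). In 6 of the 28 every array correlated best with its own number, a hint from the data only. As a block, the number ended 3 member calls of 84 results (AREB3, EEL and ABI5) and those of EM6 and LEC1.

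Over all loci, counts moved most with scaling at 15 against 12 DAP, from 11111 to 6865 (quantile) and 4657 (cyclic loess) in total and from 19157 to 5543 and 5487 in polysomal RNA. The percentage of those calls that were higher went from 51.3 to 39.5 under cyclic loess and 66.6 under median centring in total RNA, and from 42.8 to 56.7 (quantile) and 64.0 (centring) in polysomal RNA. It went from 59.8 to 48.4 (cyclic loess) for total and 57.1 to 46.5 (centring) for polysomal RNA at 20 against 15 DAP, from 56.4 to 45.8 (cyclic loess) for polysomal RNA at 18 against 15 DAP, and from 56.3 to 74.2 (centring) for the later polysomal difference. With all 24 arrays in 1 model the counts were 1407 of 5335 and 938 of 3503 at 20 against 15 DAP, 722 of 3720 and 742 of 3242 at 18 against 15 DAP, 9623 of 14666 for the later polysomal difference, and 8750 against 1573 for that at 12 DAP (843 under quantile). With the compared arrays alone they were 1787 and 401 for total RNA at 20 and 18 against 15 DAP. For the change of the ratio to 15 DAP, 806 became 3645 (all arrays), 472 (quantile) and 355 (cyclic loess), and the 22 calls from 15 to 20 DAP ranged from 0 to 40.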
